A study of Mus musculus with 6 samples.

Results

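The genes described here are the 3 cytosolic RNA helicases of the RIG-I-like family (Ddx58, Ifih1 and Dhx58), their mitochondrial adaptor Mavs, the related helicase Ddx60 and the ubiquitin ligase Rnf125. They were chosen by gene symbol, with earlier results of these data known. All 6 were found among the 28368 genes of the count table and among the 18049 genes tested. RNA came from mouse tumours in 2 groups of 3 libraries: treated tumours from mice given 12 h of a therapy called MS-DF-MS, and control tumours from mice that received no treatment. The series title describes implants that release a STING agonist and then an apoptosis inducer, and no group carried an empty implant, so drug and implant effects cannot be told apart. Mouse strain, genotype, age, tumour type and drug names were not given in the sources used here. Nothing there ties a library to its own animal either, so the p-values cover only the spread among these libraries, which may be technical. Of the 6 genes, 5 rose in the treated tumours and Mavs did not pass the threshold.

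RIG-I-like receptors are helicases of the cytosol that bind RNA with features foreign to the cell. RIG-I, encoded by Ddx58, and MDA5, encoded by Ifih1, carry caspase recruitment domains, and once bound to RNA they contact the same kind of domain on MAVS, which sits in the outer mitochondrial membrane and starts the phosphorylation of IRF3 and IRF7 and the activation of NF-kB. LGP2, encoded by Dhx58, lacks those domains and modulates the other two. The sensor genes are themselves induced by type I interferon, which forms a feed-forward loop, and STING, the adaptor of DNA sensing named in the series title, leads to the same interferon genes by a separate route.

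Promoter sequences are shown for Ddx58 and Ddx60, which rose and had matches before their start, and for Mavs, which did not pass the threshold. For Ifih1 only the matched stretch is shown. RefSeq promoter windows on GRCm38.p6, from 250 bases before to 50 bases after the start of transcription, were found for 4 of the 6 genes, Ddx58, Ifih1, Mavs and Ddx60; Dhx58 and Rnf125 had no entry. Interferon-stimulated response elements, which bind IRF factors, are built of repeated GAAA half-sites, so each window was searched on both strands for 2 such half-sites with 2 or with 1 bases of any kind between them. Capitals mark the matches. The first 3 sequences are the 250 bases before the start, 5′ to 3′ on the gene's strand: Ddx58 at chr4:40239826-40240075 on the minus strand, Ddx60 at chr8:61927837-61928086 on the plus strand and Mavs at chr2:131233813-131234062 on the plus strand.
Ddx58: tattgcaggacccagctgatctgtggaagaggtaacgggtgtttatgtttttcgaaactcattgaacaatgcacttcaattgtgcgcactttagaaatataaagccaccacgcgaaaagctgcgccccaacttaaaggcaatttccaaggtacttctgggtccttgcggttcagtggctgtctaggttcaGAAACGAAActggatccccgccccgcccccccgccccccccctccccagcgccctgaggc
Ddx60: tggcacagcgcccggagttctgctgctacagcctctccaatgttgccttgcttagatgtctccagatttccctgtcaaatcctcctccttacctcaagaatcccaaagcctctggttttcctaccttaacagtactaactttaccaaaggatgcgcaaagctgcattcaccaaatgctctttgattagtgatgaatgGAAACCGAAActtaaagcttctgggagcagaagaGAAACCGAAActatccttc
Mavs: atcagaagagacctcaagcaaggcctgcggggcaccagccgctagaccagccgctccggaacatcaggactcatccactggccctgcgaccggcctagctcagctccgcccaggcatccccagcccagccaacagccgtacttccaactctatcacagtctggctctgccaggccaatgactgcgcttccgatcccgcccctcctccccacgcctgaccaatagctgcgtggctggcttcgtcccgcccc

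Ddx60 had 2 matches with 2 bases between the half-sites, at -53 to -44 and at -19 to -10 from the start, and the matched letters are the same in both. Ddx58 had 1 match with 1 base between the half-sites, at -60 to -52, and a second with 2 bases between them on the reverse strand at 3 to 12 after the start. Ifih1 had none in the 250 bases before its RefSeq start and 1 match at 33 to 42 after it, at 62646214 to 62646223 of chromosome 2. The count table places the 5′ end of Ifih1 further downstream, at 62646211, and by that start the match lies 12 to 3 bases upstream. Mavs had no match, which says only that these letters are not in the window. Of 32851 RefSeq windows of the same 300 bases, 3.44% held a match with 2 bases between the half-sites, 3.17% one with 1 base and 6.27% either. The matches after the start are shown with up to 6 bases on each side.
Ifih1, 33 to 42: agaatcGAAACAGAAAccgatc
Ddx58, 3 to 12: aggcagTTTCGATTTCctatgg

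**Figure D1:**
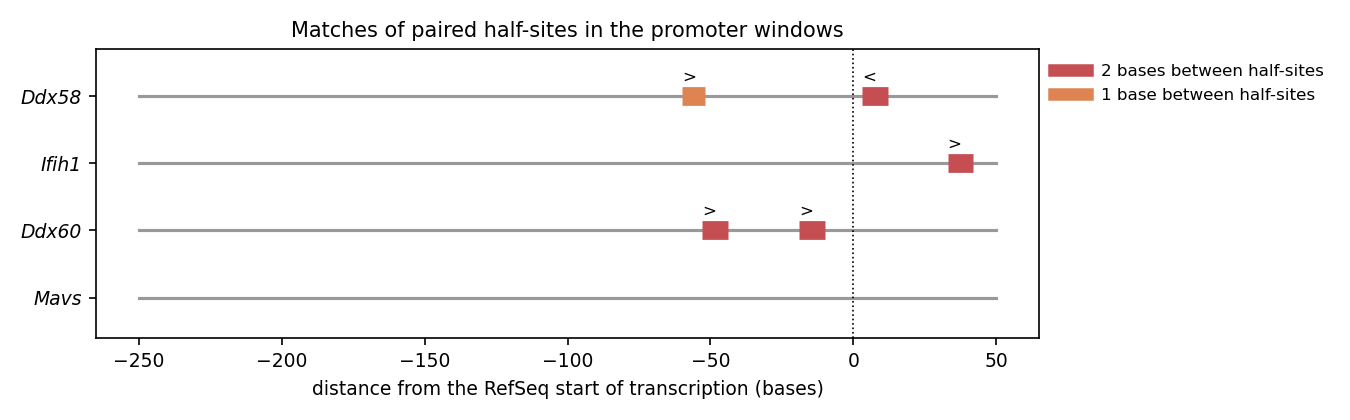
Positions of paired GAAA half-sites (boxes, red with 2 bases between the half-sites and orange with 1; the mark above each gives the strand) along the RefSeq promoter windows of 4 genes, with distance in bases from the start of transcription, drawn at 0, on the x axis. Ddx60 holds 2 matches before the start, Ddx58 1 before and 1 after, Ifih1 1 after, and Mavs none.

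The libraries held 57017043 to 66634551 counts. Levels are given as CPM, the counts scaled by TMM to a common library size. Treated 3 had a score of 72.9 on the first principal component of log2 CPM and the rest had -37.9 to 13.3, and the counts of called genes, the fold changes and the ratios below were also computed without it. Markers of pigment cells were abundant and alike in both groups, with 7 genes summing to 21635.8 to 23502.5 CPM after treatment and to 21009.9 to 23200.2 CPM without it. Summed levels of other markers did not overlap between groups for neutrophils (6 genes, 4.22 to 49.3 against 1.63 to 3.91 CPM), red cells (4 genes, 259.0 to 1446.5 against 96.6 to 245.8 CPM), endothelium (6 genes, 131.6 to 142.1 against 87.2 to 110.3 CPM) and T cells (7 genes, 1.79 to 5.92 against 6.29 to 7.49 CPM). Of these genes, only 3 endothelial markers (Pecam1, Cdh5 and Emcn) passed the edgeR threshold. Vwf of the same list was lower in treated tumours (log2 fold change -0.49, edgeR adjusted p = 0.284). DESeq2 called 3 of 5 tested neutrophil markers and 3 endothelial markers higher (3.87% of all tested genes). At an unadjusted edgeR p under 0.05, 4 neutrophil, 4 red cell and 3 endothelial markers were higher (9.12% of all tested genes). By the same measure, 2 T cell markers and 1 endothelial marker were lower (6.90%). Treated 1 had the highest sums for red cells (1446.5 CPM) and neutrophils (49.3 CPM), and also for keratinocytes (4 genes, 80.1 CPM against at most 0.14 CPM in the other libraries) and skeletal muscle (4 genes, 110.1 CPM against 0.843 to 50.3 CPM). No marker in any of those lists was at 0 in all libraries, and the part of these cells in the results was not tested. In whole tumours a change in the number of cells of a type and a change in RNA per cell cannot be told apart.

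Ddx58, which recognises RNA with a 5′ triphosphate, stood at 226.6, 228.7 and 215.6 CPM in treated 1, 2 and 3 and at 23.8, 29.6 and 29.9 CPM in control 1, 2 and 3. Each treated library was far above each control, with the lowest treated value 7.20 times the highest control value. The fitted rise was 8.05-fold (95% interval 6.85 to 9.47; log2 fold change 3.01 with an SE of 0.10, edgeR adjusted p = 3.85e-05), and Ddx58 had the smallest p of all 18049 genes tested. It was also the steadiest of the risen genes: the SD among treated libraries was 3.15% of their mean. The gene (ENSMUSG00000040296) lies on chromosome 4 from 40203773 to 40239825, minus strand, a span of 36053 bases, and GENCODE M21 gives it coding transcripts of up to 18 exons.

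Dhx58, the family member without a signalling domain, had the highest fold change of the 6 genes. It stood at 108.5, 97.6 and 74.4 CPM in treated 1, 2 and 3 and at 8.11, 11.7 and 9.52 CPM in the controls. Treated 3 was the lowest of its group and still 6.38 times the highest control. The rise was 9.57-fold (95% interval 7.17 to 12.8; log2 fold change 3.26 with an SE of 0.18, edgeR adjusted p = 0.000305), the fifth smallest p of all. The gene (ENSMUSG00000017830) lies on chromosome 11 from 100694884 to 100704271, minus strand, with up to 13 exons. Its antisense transcript Dhx58os overlaps it over 2637 bases but had 5 to 32 counts per library, against at least 525 for Dhx58.

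Ifih1, which recognises long double-stranded RNA, rose least of the 3 sensors. Its levels were 99.6, 130.7 and 85.9 CPM in treated 1, 2 and 3 and 18.1, 21.7 and 28.5 CPM in the controls. The groups did not overlap, but both were more spread than for Ddx58, with SDs of 21.8% and 23.4% of the mean. The rise was 4.63-fold (95% interval 3.35 to 6.41; log2 fold change 2.21 with an SE of 0.20, edgeR adjusted p = 0.00161). The gene (ENSMUSG00000026896) lies on chromosome 2 from 62595798 to 62646211, minus strand, with up to 16 exons.

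Mavs, through which RIG-I and MDA5 signal, was almost level. It stood at 39.5, 41.5 and 38.9 CPM in treated 1, 2 and 3 and at 37.8, 37.5 and 33.7 CPM in control 1, 2 and 3. The treated libraries all lay above the controls, though the lowest treated was only 1.03 times the highest control, and control 3 was the lowest of all. The log2 fold change was 0.14 with an SE of 0.07 (edgeR adjusted p = 0.417), with a 95% interval of 0.977 to 1.24-fold, so a rise of up to that size is within the error. The gene (ENSMUSG00000037523) lies on chromosome 2 from 131234063 to 131248025, plus strand, with up to 7 exons.

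Ddx60, a large helicase reported to act beside RIG-I, was at 25.3, 27.5 and 21 CPM in treated 1, 2 and 3 and at 3.01, 2.95 and 5.00 CPM in the controls. All treated libraries were at least 4.20 times the highest control, which was control 3. The rise was 6.75-fold (95% interval 4.66 to 9.77; log2 fold change 2.75 with an SE of 0.23, edgeR adjusted p = 0.000931). The gene (ENSMUSG00000037921) lies on chromosome 8 from 61928087 to 62037695, plus strand, and has up to 39 exons, the most of the 6 genes.

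Rnf125, a ubiquitin ligase that marks RIG-I, MDA5 and MAVS for degradation, rose together with the sensors but from few reads. Treated 1, 2 and 3 gave 102, 185 and 128 counts of it and the controls 26, 29 and 23, or 1.56, 2.87 and 1.93 CPM against 0.402, 0.450 and 0.403 CPM. The groups did not overlap, and treated 2 was the highest. The rise was 5.05-fold (95% interval 2.97 to 8.58; log2 fold change 2.34 with an SE of 0.33, edgeR adjusted p = 0.016). The call was lost without treated 2 (log2 fold change 2.06, edgeR adjusted p = 0.0617) and without control 1 (2.31, 0.0755), control 2 (2.39, 0.099) or control 3 (2.32, 0.0885), and it held without treated 1 or 3. The gene (ENSMUSG00000033107) lies on chromosome 18 from 20944625 to 20983862, plus strand, with up to 6 exons.

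**Figure D2:**
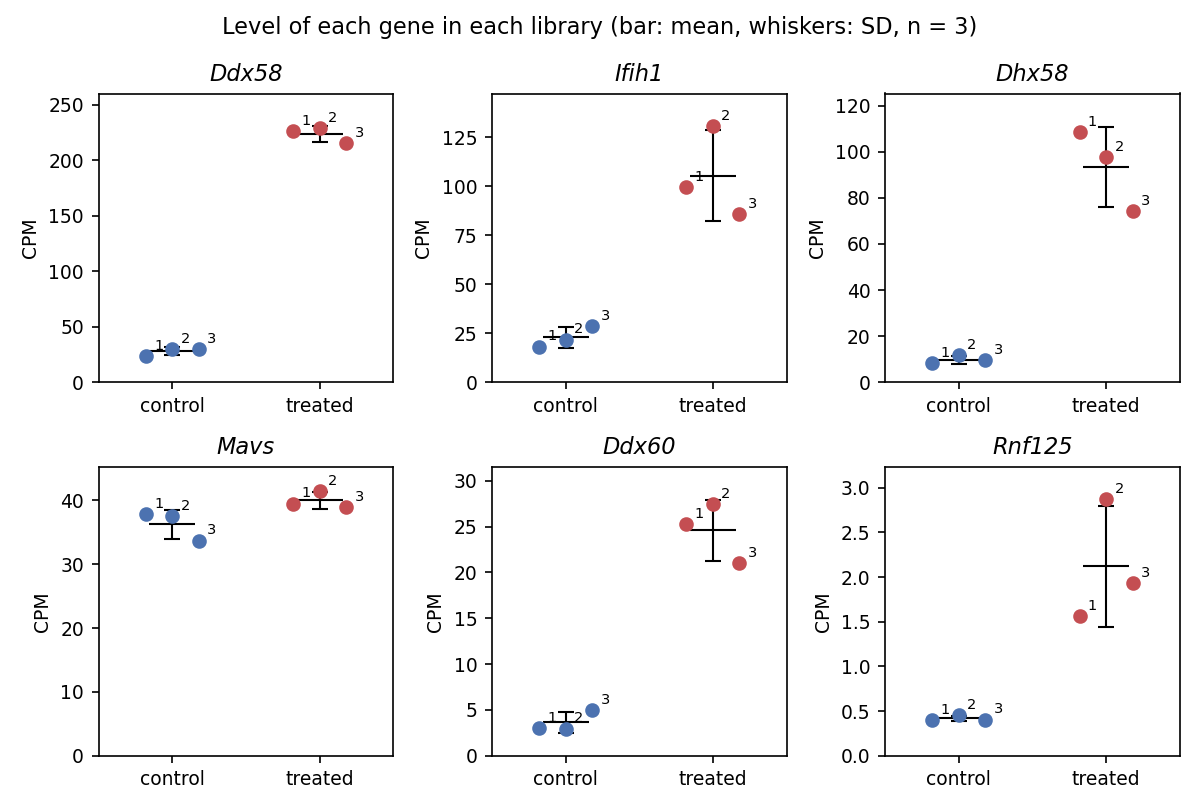
CPM of each of the 6 genes in each library (y axis from 0; points are libraries labelled with their replicate number, the bar is the group mean and the whiskers the SD, n = 3). Treated libraries lie well above controls for 5 genes, while Mavs spans only 33.7 to 41.5 CPM over both groups.

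As a group, 5 of the 6 genes rose and none fell, where 1.36% of the tested genes rose, 0.249% fell and 1.61% changed in either direction. Because the 6 were chosen with earlier results known, these shares give a scale and do not test the group. No member fell at an unadjusted p under 0.05, or by DESeq2 or limma-voom. For all 6 the groups did not overlap, as was so for 23.3% of all tested genes. Without treated 3 the same 5 genes rose, with log2 fold changes of 3.03 for Ddx58, 3.40 for Dhx58, 2.34 for Ifih1, 2.86 for Ddx60 and 2.40 for Rnf125. The calls of Ddx58, Dhx58, Ifih1 and Ddx60 held without each library in turn, with edgeR adjusted p up to 0.0209. The treated libraries did not rank the genes alike: treated 1 was the highest for Dhx58 and the lowest for Rnf125, treated 2 was the highest for the other 5 genes, and treated 3 was the lowest for all but Rnf125.

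FPKM values, which divide by a fixed length per gene, allow genes to be set beside each other. That length need not be the length of the transcripts present, and GENCODE M21 lists 2 transcripts for Rnf125 and 10 for Ddx58. Orders between genes carry this limit. In control tumours Mavs was the most abundant at 9.63 ± 0.591 FPKM (SD, n = 3), above Ddx58 at 3.49 ± 0.434, Dhx58 at 2.64 ± 0.484 and Ifih1 at 2.47 ± 0.579 FPKM. The ranges of Ddx58 and Dhx58 overlapped, as did those of Dhx58 and Ifih1, so the sensors had no firm order among themselves. Ddx60 followed at 0.371 ± 0.119 and Rnf125 at 0.217 ± 0.0160 FPKM, each below the range of the gene before it.

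In treated tumours the order was different. Ddx58, at 28.0 ± 0.708 FPKM, and Dhx58, at 25.2 ± 4.68 FPKM, overlapped and stood first. Ifih1, at 11.4 ± 2.30 FPKM, overlapped with Mavs, at 10.5 ± 0.195 FPKM (all SD, n = 3). Ddx60 at 2.50 ± 0.309 and Rnf125 at 1.11 ± 0.336 FPKM kept the last places. Mavs thus went from above each sensor, with no overlap, to below Ddx58 and Dhx58, with no overlap, while its own level per length hardly moved.

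**Figure D3:**
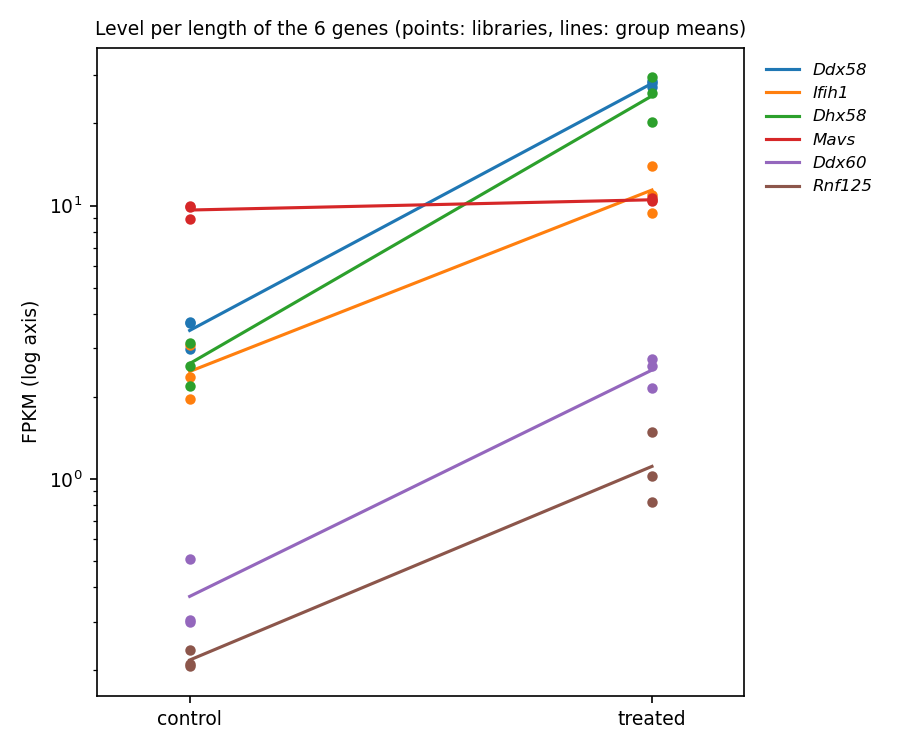
FPKM of the 6 genes on a log axis in control and treated tumours (points are libraries, lines join the group means). The line of Mavs is nearly flat, from 9.63 to 10.5 FPKM, and is crossed by those of Ddx58, Dhx58 and Ifih1.

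Ratios taken within each library show the same shift without depending on library scaling. Ddx58 per Mavs was 0.298, 0.375 and 0.420 in control 1, 2 and 3 and 2.72, 2.62 and 2.63 in treated 1, 2 and 3, a difference of 2.88 on the log2 scale. Dhx58 per Mavs went from 0.218 to 0.318 in controls to 1.95 to 2.81 in treated tumours, a log2 difference of 3.12, and Ifih1 per Mavs from 0.196 to 0.346 to 0.904 to 1.29, a log2 difference of 2.08. In treated libraries the Ddx58 ratio was the tightest, with an SD of 0.03 on the log2 scale.

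The sensors also changed relative to each other. Dhx58 per Ifih1 was 1.12, 1.34 and 0.831 in the controls and 2.72, 1.86 and 2.16 in treated 1, 2 and 3 (log2 difference 1.05), and Ifih1 per Ddx58 was 0.657, 0.634 and 0.825 in the controls and 0.380, 0.494 and 0.344 in the treated libraries (-0.80). Neither pair overlapped between groups. Dhx58 per Ddx58 overlapped, at 0.685 to 0.848 in control and 0.744 to 1.03 in treated tumours (log2 difference 0.24). The regulators moved with the sensors: Ddx60 per Mavs had a log2 difference of 2.66, and Rnf125 per Mavs one of 2.17. Of the 8 ratios compared, 7 reached p = 0.1 in an exact two-sided permutation test, the smallest that 3 against 3 libraries allow, and 0.114 adjusted over the ratios by Benjamini-Hochberg. Dhx58 per Ddx58 had an exact permutation p = 0.2 (adjusted 0.2).

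Likeness was measured over 11318 tested genes whose log2 CPM averaged 1 or more. Gene models with no proper name and the 6 members themselves were left out, so a member could not be listed as closest to another. The closest to Ddx58 over the 6 libraries by Pearson correlation of log2 CPM was Tdrd7 (r = 0.999), then Nid2 (0.998) and Rtp4 (0.997). Closest to Dhx58 were Usp18, Adar and Pml (0.999, 0.998 and 0.997), and closest to Ifih1 were Tlr3, Cdh5 and Parp10 (0.998, 0.998 and 0.997). For Ddx60 they were Trim12c, Eif2ak2 and Cdh5 (0.999, 0.999 and 0.998), and for Rnf125 Poldip3, Asns and Zmiz1 (0.999, 0.998 and 0.997). Mavs was closest to Sft2d2, Dcaf11 and Sall2 (0.998, 0.993 and 0.991). These values describe 6 libraries split into 2 groups, and a correlation over 0.95 was reached by 1.74 to 2.08% of the genes for the 5 that rose and by 0.733% for Mavs. The closest genes differ widely in size of change, with log2 fold changes of 4.20 for Usp18, 1.16 for Tdrd7 and 0.24 for Poldip3.

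Of 14 tested genes that promote signalling by RIG-I-like receptors, 4 rose and none fell by edgeR (1.36% and 0.249% of all tested genes). The other 10 did not pass, and the median log2 fold change was -0.01, beside -0.003 over all tested genes. This list and those below were chosen with earlier results of these data known, so the shares only give a scale. Trim25, a ubiquitin ligase that activates RIG-I, rose from 9.29 ± 0.860 to 30.5 ± 3.30 CPM (SD, n = 3; 3.28-fold, edgeR adjusted p = 0.000459). Rnf135, the ligase also called Riplet, rose 1.87-fold (edgeR adjusted p = 0.0409), Zc3hav1, the antiviral protein ZAP, 1.72-fold (0.0143), and Trim14, which binds MAVS, 2.82-fold (0.0405). Ywhae, the 14-3-3 protein that carries RIG-I to the membrane and the most abundant of the list, had 971.2 ± 74.8 against 1057.5 ± 36.1 CPM (edgeR adjusted p = 0.422). The call of Trim25 held without each library in turn. Those of Rnf135 (edgeR adjusted p up to 0.219) and Trim14 (up to 0.222) were lost without treated 2 and each control, and also without treated 1 for Rnf135 and treated 3 for Trim14; that of Zc3hav1 was lost without each control (up to 0.0992). None fell at an unadjusted p under 0.05, by DESeq2 or by limma-voom. Limma-voom called 2 of the 14 higher, and 219 of all tested genes. Rnf135 (limma-voom adjusted p = 0.0676) and Trim14 (0.0769) did not pass with it. Both also missed without the filter, with the replicate number as a block and with either log2 FPKM.

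Beside Rnf125, 25 genes known to restrain this pathway were tested, and 1 rose by edgeR (1.36% of all tested genes). Adar, which edits double-stranded RNA so that MDA5 does not bind it, rose from 74.2 ± 5.23 to 172.4 ± 12.2 CPM (SD, n = 3; 2.32-fold, edgeR adjusted p = 0.000348), and its call held without each library in turn. The other 24 did not pass, and the median over the list was 0.00 on the log2 scale. Pcbp2, which leads MAVS to degradation and is the most abundant of them, had 689.5 ± 19.7 against 726.0 ± 9.62 CPM (edgeR adjusted p = 0.518). DESeq2 called 3 higher (3.87% of all tested genes), and none fell by edgeR, DESeq2 or limma-voom. Of the 25, 4 were higher and 2 lower in treated tumours at an unadjusted p under 0.05, where 9.12% of all tested genes were higher and 6.90% lower. Of 3 ligases related to Rnf125, Rnf114 rose 1.56-fold (edgeR adjusted p = 0.00216), and Rnf138 (log2 fold change -0.24) and Rnf166 (-0.10) did not pass.

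Of 21 adaptors, kinases and transcription factors on the path from MAVS, only Irf7 rose, from 7.83 ± 0.747 to 97.2 ± 33.7 CPM (SD, n = 3; 12.4-fold, edgeR adjusted p = 0.00036). Irf7 is itself known to be induced by interferon. Sting1, the gene of STING, was counted among the 21 despite its separate route, and did not pass (1.23-fold, edgeR adjusted p = 0.226). The median log2 fold change of the list was 0.19, with 9 of the 21 genes higher at an unadjusted p under 0.05 (9.12% of all tested genes) and 3 called higher by DESeq2 (3.87% of all tested genes). Groups did not overlap for 13 of the 21, beside 23.3% of all tested genes, and edgeR called 1.36% of all tested genes higher. Azi2, an adaptor of the kinase TBK1 and the most abundant of the list, had 81.0 ± 1.95 against 70.2 ± 1.64 CPM (edgeR adjusted p = 0.146). None of 7 mitochondrial partners of MAVS was called in either direction by edgeR, DESeq2 or limma-voom, and their median was -0.06. At an unadjusted p under 0.05, 1 of the 7 partners was lower (6.90% of all tested genes). Phb2, the most abundant of them, had 420.3 ± 40.4 against 439.0 ± 14.5 CPM (edgeR adjusted p = 0.758). Of 21 interferon genes listed, 4 were in the table and 2, Ifnb1 and Ifng, were tested. Neither was called by edgeR or limma-voom, or had an unadjusted p under 0.05, and DESeq2 gave no adjusted p for Ifnb1. At the end of the path, treated 1, 2 and 3 gave 20, 95 and 7 counts of Ifnb1 and the controls 15, 5 and 0 (log2 fold change 2.57 ± 1.25 SE, edgeR adjusted p = 0.363). That value rests on single libraries: it was 0.97 without treated 2 and 3.92 without control 1.

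Of 12 genes of other RNA-sensing systems 6 rose and none fell by edgeR (1.36% and 0.249% of all tested genes). The median log2 fold change of the 12 was 1.40. Oas2 and Oasl1 rose 11.2-fold and 11.4-fold (edgeR adjusted p = 0.000689 and 0.00089) and Oas1a 4.65-fold (0.00036). All 3 belong to the family of oligoadenylate synthetases and their relatives. Eif2ak2, the RNA-activated kinase PKR, rose 2.55-fold (edgeR adjusted p = 0.000887), and Tlr3, the endosomal receptor of double-stranded RNA, rose 2.95-fold (0.00127). The Oas genes have close paralogs that may share reads, so their separate values are uncertain. Among 48 other DDX and DHX helicases, which mostly serve splicing, ribosome assembly and translation, 1 rose: Ddx24, by 1.30-fold (edgeR adjusted p = 0.0434), a call lost without each library in turn (up to 0.232). Their median log2 fold change was -0.03, and the range was -0.46 to 0.41. Ddx5, the most abundant, had 1011.3 ± 143.4 against 1395.7 ± 129.7 CPM (SD, n = 3; edgeR adjusted p = 0.0974). DESeq2 (adjusted p = 0.000363) and limma-voom with sample weights (adjusted p = 0.0312) called Ddx5 lower. None of the 48 fell by edgeR or by limma-voom without weights. Limma-voom with weights called 3 lower and 2 higher, and DESeq2 called 4 lower and 2 higher. Over all 18049 tested genes, DESeq2 called 1.65% lower and 3.87% higher, and limma-voom with weights called 191 genes lower and 601 higher. At an unadjusted p under 0.05, 9 of the 48 were lower and 4 higher (6.90% and 9.12% of all tested genes). The smallest log2 fold change among the 4 helicases that rose here (Ddx58, Dhx58, Ifih1 and Ddx60), 2.21 for Ifih1, was above the highest of the 48.

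**Figure D4:**
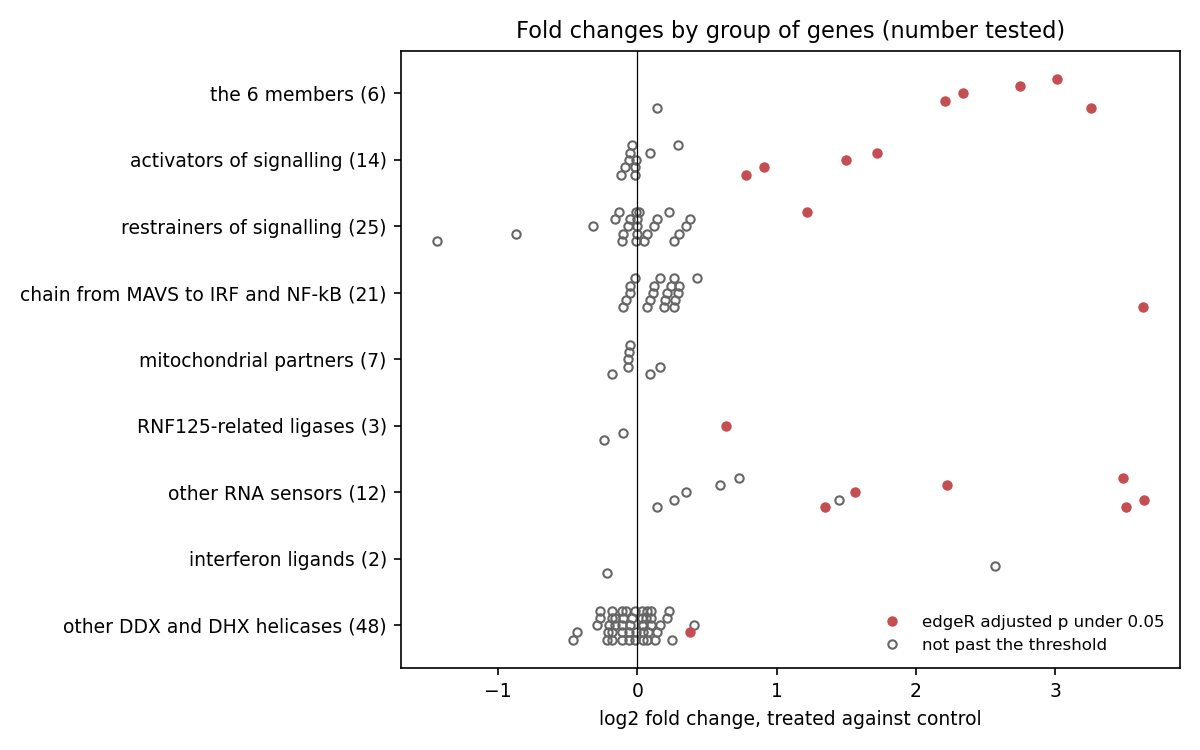
Log2 fold change of treated against control tumours for each tested gene (points; filled where the edgeR adjusted p is under 0.05), by group of genes with the number tested in brackets; points are offset vertically only to separate them. The 5 members that rose lie between 2.21 and 3.26, and the 48 other helicases between -0.46 and 0.41.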

How the data were processed

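Per the labels' protocols, poly(A) RNA was selected, second strands with dUTP were removed, and both ends of the fragments were read. Tools named in the submitters' processing notes, with no version, are fastp, StringTie and edgeR. The aligner, build, annotation and strand setting were not given in the sources used here. GENCODE M21 (GRCm38) holds 99.7% of the table's identifiers, and gene spans match in 90.0%.

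The authors deposited raw counts and FPKM per gene, per the file headers. FPKM was proportional to counts within 1% for 99.8 to 100.0% of 12046 genes with at least 100 counts in each library. The FPKM column of control 2 carries a suffix in its header and was matched by title.

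In R 4.3.3, genes were kept by filterByExpr (minimum count 10, total 15), scaled by TMM and tested with edgeR 4.0.16 (glmQLFit, glmQLFTest, group term, 6 libraries, two-sided), with Benjamini-Hochberg adjustment over 18049 genes and a threshold of 0.05. SE is the log2 fold change over the square root of F. The fits were tested on simulated counts. Where a symbol occurred more than once, the row with the highest mean count was used.

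Members and lists were chosen with earlier results of these data known. Named genes are the 6 members, up to 4 called genes and the most abundant gene of each of 8 lists, and the 3 genes closest to each member; Rnf138 and Rnf166 were added after their values were seen. Alternatives were DESeq2 1.42.0, limma-voom (limma 3.58.1) with and without sample weights, DESeq2 size factors, other filters, log2(FPKM + 0.1 or 1), the replicate number as a block, and each library left out.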

Additional observations from a re-analysis of the deposited data

How the results depend on the processing

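Over 15 alternatives the rises of Ddx58, Dhx58, Ifih1 and Ddx60 were called each time and that of Mavs never (edgeR, DESeq2 or limma adjusted p from 0.352 to 0.711). Log2 fold changes ran from 2.70 to 3.07 for Ddx58, 2.84 to 3.41 for Dhx58, 1.83 to 2.41 for Ifih1, 1.35 to 3.05 for Ddx60, 0.09 to 0.17 for Mavs and 0.78 to 2.52 for Rnf125, and log2(FPKM + 1), which shrinks low genes by construction, gave 1.35 and 0.78. Rnf125 was called in 9 of the 15: it missed with limma-voom (2.27, adjusted p = 0.0508), with the replicate block (2.29, 0.062) and without treated 2 or any 1 control (2.06 to 2.52 over the 6 leave-outs), and the cause was not tested. With 0.1 added to FPKM, the log2 difference of Rnf125 per Mavs was 1.76.

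In the main edgeR fit 246 genes rose and 45 fell. The number that rose was 701 by DESeq2 (699 of them tested by edgeR), 601 by limma-voom with sample weights and 123 with the replicate block. With each library left out it was 94 (without control 2) to 308 (without treated 3), with 120 without treated 2, 127 without control 1 and 113 without control 3. The number that fell was 297 by DESeq2, 191 by limma-voom with sample weights and 14 with the replicate block. It was 10 without the filter, 24 with either log2 FPKM, and 3 to 39 with each library left out. Of the 132 tested list genes, 14 rose (1.36% of all tested genes), and 9 to 14 with each library left out (9 without any 1 control). By edgeR none of the list genes fell (0.249% of all tested genes). In other settings 4 fell by DESeq2 (1.65% of all tested genes), 3 by limma-voom with weights, 1 with the stricter filter and 1 with the block. The numbers in the library names are not said to pair the libraries. Deviations of same-numbered libraries correlated at 0.09, -0.16 and -0.11, and not every library correlated best with its own number. With 3 libraries per group, these values cannot exclude a pairing. The block changed no member's call but that of Rnf125, and with it Ddx5 was called lower (-0.47, adjusted p = 0.0418). The 23 to 185 counts of Rnf125 per library limit the precision of its values.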

Other observations

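Dhx58os, the antisense transcript (ENSMUSG00000085604) that shares 2637 bases with Dhx58, was below the filter and was not tested. Treated 1, 2 and 3 gave 32, 18 and 5 counts of it, and the controls 8, 7 and 6. Whether the counting separated strands is not given in the sources used here.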
